A study of Mus musculus with 12 samples.

Results

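The 10 genes described here code for the enzymes that build fatty acids from acetyl-CoA and for the transcription factor gene that gives rise to SREBP-1c. They are Srebf1, Acly, Me1, Acaca, Fasn, Thrsp, Elovl6, Elovl3, Scd1 and Pnpla3, and all 10 were found by symbol among the 24187 genes of the count table. The genes were chosen by name, as a group, at a time when fold changes of these same livers were already known. The counts and fold changes in all comparisons are therefore given as a description and are not independent evidence of a direction.

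RNA was sequenced from 12 liver samples, labelled as separate samples. A vehicle and a hAAM library were nearly identical, so that whether all 12 are distinct livers is uncertain. By the labels, the 3 control mice were untreated and uninjured, 5 mice received 350 mg/kg APAP (paracetamol) by the sample labels followed by PBS as vehicle, and 4 mice received the same APAP dose followed by hAAMs, which are human macrophages activated with IL-4 and IL-13. Per the study's methods, mice were male or female C57BL6/JOlaHsd animals aged 10 to 12 weeks. APAP was given after a 12 h fast, food was returned shortly after APAP, and cells or vehicle were given 16 h after APAP. The labels give neither strain, age, sex nor the time at which the sequenced livers were taken, and Y-linked transcripts were present in all 12 livers. The paper presents the sequenced livers together with its severe injury model, in which mice were culled 16 h after cells or vehicle. That model used a higher APAP dose than the labels give. The dose that these livers received is therefore uncertain. The control mice were labelled untreated, while the methods also describe mice given saline after the 12 h fast. Whether the controls were fasted or injected is uncertain, so APAP, the fast and the handling cannot be told apart in any comparison with control. Nothing in the labels says more of how the livers of one group were obtained than that they are separate samples, and p-values measure the spread between these samples.

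De novo lipogenesis turns surplus carbohydrate into fat and is one of the main metabolic tasks of the hepatocyte. Citrate leaves the mitochondrion, ATP citrate lyase (Acly) splits it to cytosolic acetyl-CoA, acetyl-CoA carboxylase (Acaca) makes malonyl-CoA, and fatty acid synthase (Fasn) joins these units into palmitate with NADPH that is supplied in part by malic enzyme (Me1). Elongases such as Elovl6 and Elovl3 lengthen the product, and stearoyl-CoA desaturase (Scd1) puts in the double bond of oleate. SREBP-1c, made from Srebf1, and ChREBP, made from Mlxipl, raise transcription of these enzymes after feeding, in response to insulin and to glucose metabolites. SREBP-1c is made as a membrane-bound precursor that has to be cut before it enters the nucleus, so the mRNA level of Srebf1 is not a measure of its activity.

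In APAP-injured livers with vehicle, 6 of the 10 genes fell and none rose relative to control livers, in a test that called 14.8% of all 22581 genes tested lower and 15.0% higher. Elovl3 and Scd1 moved furthest, to 3.81% and 7.83% of their control means. These shares were 6.07% for Elovl3 without control replicate 1 and 3.41% for Scd1 without vehicle replicate 3. Elovl6, Fasn, Me1 and Acaca also fell, whereas Pnpla3, Thrsp, Acly and Srebf1 did not pass the test. With hAAMs, 5 genes fell relative to control livers (Elovl3, Scd1, Elovl6, Me1 and Acaca) and none rose, where 9.96% of all genes were called lower and 10.7% higher. These calls come from the quasi-likelihood test of edgeR with all 12 livers fitted together, at an FDR (Benjamini-Hochberg, over all genes tested) under 0.05. All 10 genes passed the filter on low counts.

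The median log2 fold change of the 10 genes against control was -1.89 with vehicle and -1.39 with hAAMs, beside medians of 0.01 and 0.02 over all genes tested. In every liver treated with vehicle, 7 of the 10 genes lay below every control liver, which was also true of 17.3% of all genes tested. The 3 exceptions were Srebf1, Acly and Pnpla3. With hAAMs, 6 of the 10 genes lay wholly below the control livers, the exceptions being these 3 and Thrsp, and the share over all genes was 14.2%. Without the near-identical vehicle and hAAM libraries these counts were 9 (all but Srebf1) and 7 (all but Srebf1, Acly and Thrsp), beside 20.6% and 16.7% of all genes. The plot of the levels by liver shows these gaps and overlaps gene by gene.

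**Figure D1:**
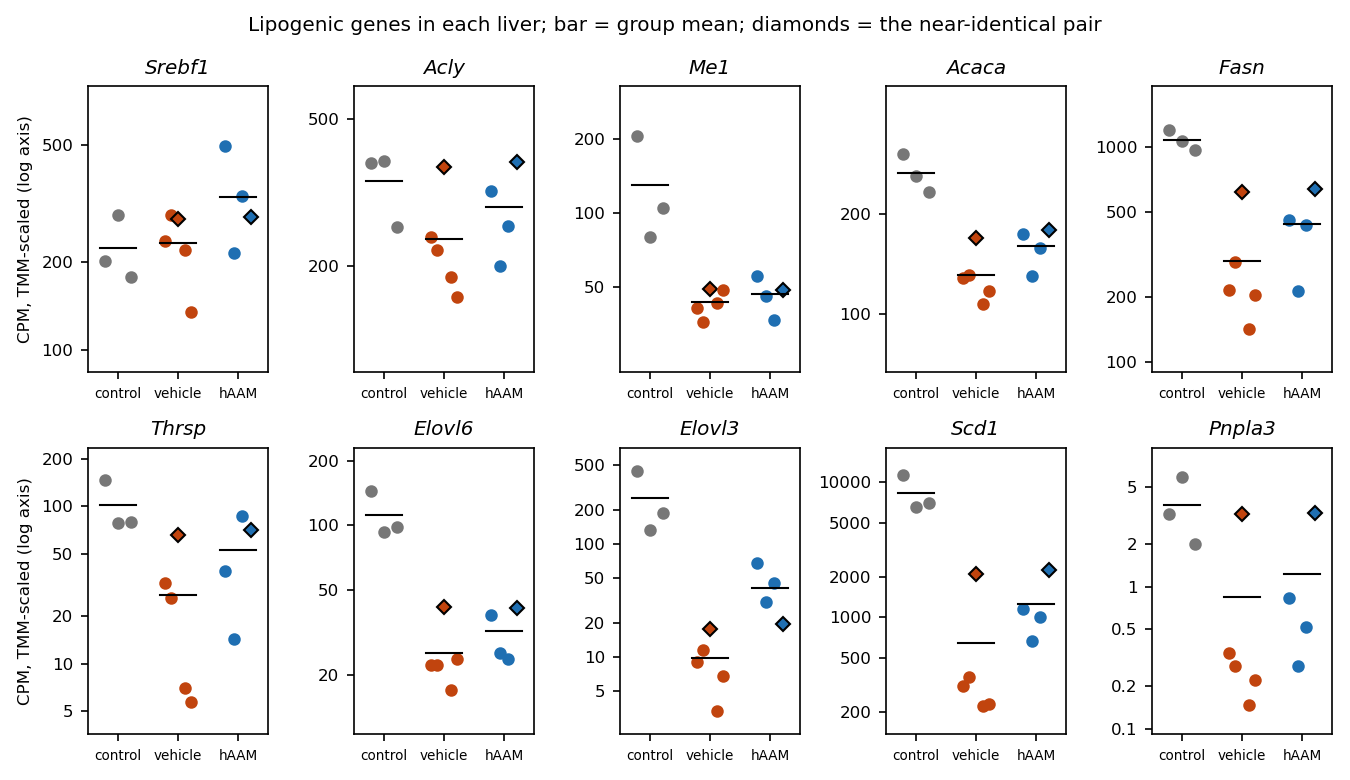
Level of each of the 10 lipogenic genes in each of the 12 livers, in CPM (counts scaled to library size with TMM factors) on a log axis, by group. Points are livers, bars are group means, and diamonds mark vehicle replicate 3 and hAAM replicate 4, with 2104 and 2236 CPM for Scd1. The first was the highest vehicle-treated liver for 9 of the 10 genes.

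The libraries held 47391650 to 74056505 counts each, with TMM factors from 0.832 to 0.859 in control and from 0.933 to 1.14 in APAP-injured livers. With library size in place of TMM, the median over all genes against control was 0.36 with vehicle and 0.32 with hAAMs on the log2 scale, and the share of calls that were higher went from 50.3% to 88.6% and from 51.8% to 89.4%. The 6 and 5 lower calls among the lipogenic genes were the same in number under that scaling. Over all genes, lower calls went from 3339 to 1110 with vehicle and from 2248 to 781 with hAAMs. The 2 libraries hAAM replicate 4 and vehicle replicate 3 carry different labels but differed by 1.18 times counting noise, where the other 65 pairs of livers differed by 2.42 to 8.21 times. They were kept as labelled, and the counts of lipogenic genes are also given without both.

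Without these 2 libraries, 9 of the 10 genes were called lower with vehicle (all but Srebf1) and 7 with hAAMs (Elovl3, Scd1, Pnpla3, Elovl6, Fasn, Me1 and Acaca). In that fit 14.0% of all genes tested were called lower with vehicle and 8.49% with hAAMs. Leaving out vehicle replicate 3 alone also gave 9 lower calls with vehicle, the largest effect of any single liver on this count, where 15.4% of all genes were called lower. Leaving out single livers gave 6 to 9 lower calls with vehicle and 4 to 6 with hAAMs. Over all genes tested, those fits called 4633 to 7197 genes with vehicle and 2419 to 5456 with hAAMs, in either direction. In vehicle replicate 3, 9 of the 10 genes had the highest level of the 5 vehicle-treated livers, Srebf1 being the exception, and in hAAM replicate 4, 6 of the 10 had the highest level of the 4 hAAM-treated livers. The 2 livers differed from each other by 0.01 to 0.13 on the log2 scale in these genes.

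Together, the 10 genes held 0.757% to 1.21% of all counts in control livers, 0.102% to 0.377% in vehicle-treated and 0.175% to 0.398% in hAAM-treated livers. Vehicle replicate 3 held the 0.377%, and the other 4 vehicle-treated livers held 0.144% or less. Scd1 alone made up 73.1% to 78.7% of those counts in control livers, 23.3% to 26.2% in 4 vehicle-treated livers, 56.6% in vehicle replicate 3 and 41.1% to 57.2% with hAAMs. Per kilobase of annotated exon, the order of mean levels in control livers was Scd1, Elovl3, Fasn, Acly, Thrsp, Srebf1, Me1, Elovl6, Acaca and Pnpla3. On this scale Scd1 stood at 1687 ± 534 CPM per kb (SD, n = 3) and Elovl3 at 129 ± 84.4, and the ranges of Elovl3 and of Fasn, which was next, overlapped. With vehicle, Elovl3 was at 4.92 ± 2.75 CPM per kb (SD, n = 5) and ranked 8th, and Srebf1 at 41.1 ± 10.9 ranked 3rd, behind Scd1 and Acly. The order of the 10 genes therefore differed between control and injured livers.

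Srebf1 (ENSMUSG00000020538, chr11:60199089-60222581, minus strand, GRCm38) stood at 201, 288 and 177 CPM in control livers, at 235, 289, 279, 219 and 134 CPM with vehicle and at 495, 214, 335 and 285 CPM with hAAMs. The 3 groups overlapped, and the highest liver was hAAM replicate 1. The log2 fold change was 0.06 with vehicle (95% interval -0.56 to 0.68, edgeR FDR 0.898) and 0.58 with hAAMs (-0.08 to 1.24, FDR 0.19). Without either library of the near-identical pair the vehicle value was -0.01, so it has no stable sign. The gene has several start sites that give the SREBP-1a and SREBP-1c transcripts, and counts per gene do not separate them. Rai1 overlaps it on the other strand, with 1304 to 2159 counts per liver against 8956 to 26170 for Srebf1.

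Acly (ENSMUSG00000020917, chr11:100476353-100528000, minus strand) was measured at 380, 385 and 255 CPM in control, 240, 222, 371, 187 and 165 CPM in vehicle-treated and 320, 200, 258 and 384 CPM in hAAM-treated livers. The groups overlapped, with vehicle replicate 3 and hAAM replicates 1, 3 and 4 inside the control range. The fold change did not pass the test with vehicle (log2 -0.52, 95% interval -1.10 to 0.05, edgeR FDR 0.156) or with hAAMs (log2 -0.23, FDR 0.598). Without vehicle replicate 3 the vehicle value was -0.74 at an FDR of 0.0268.

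Me1 (ENSMUSG00000032418, chr9:86581371-86695953, minus strand), the cytosolic malic enzyme, was measured at 205, 79.8 and 105 CPM in control livers. In vehicle-treated livers it stood at 41.2, 36.0, 49.3, 43.3 and 48.5 CPM, and in hAAM-treated livers at 55.5, 45.8, 36.6 and 48.9 CPM. The 9 injured livers lay close together and below all controls, which differed among themselves by 2.57 times. Me1 fell by 1.57 on the log2 scale with vehicle (95% interval -2.10 to -1.05, edgeR FDR 0.000999) and by 1.48 with hAAMs (FDR 0.0035). Gm7329, a processed pseudogene model, shares 86.7% of its 31-base words with Me1 transcripts and followed it at 8.11% to 10.1% of its counts, so a part of its reads may belong to Me1 or the reverse.

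Acaca (ENSMUSG00000020532, chr11:84129672-84401651, plus strand), which makes malonyl-CoA, showed little spread. Its level was 301, 260 and 232 CPM in control, 128, 131, 169, 107 and 118 CPM in vehicle-treated and 173, 131, 157 and 179 CPM in hAAM-treated livers. Every injured liver was below every control. Acaca fell to 49.5% of the control mean with vehicle (log2 -1.02, 95% interval -1.34 to -0.69, edgeR FDR 0.000769) and to 60.6% with hAAMs (log2 -0.72, FDR 0.00904). The pseudogene Gm5182 shares 89.3% of its 31-base words with Acaca transcripts and stood at 18.0% to 19.8% of its counts in each liver.

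Fasn (ENSMUSG00000025153, chr11:120805846-120824547, minus strand) was even among controls, at 1210, 1071 and 970 CPM, and uneven among injured livers. It was measured at 217, 291, 617, 143 and 205 CPM with vehicle and at 461, 213, 437 and 641 CPM with hAAMs. No injured liver reached a control. Fasn fell with vehicle by 1.88 on the log2 scale (95% interval -2.79 to -0.97, edgeR FDR 0.00626), while with hAAMs the value of -1.31 (-2.27 to -0.34) missed the threshold at an FDR of 0.055. Without the near-identical pair the hAAM value was -1.55 at an FDR of 0.00931, and DESeq2 with all livers gave an adjusted p of 0.0171.

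Thrsp (ENSMUSG00000035686, chr7:97412938-97417730, minus strand), or Spot 14, is a small protein that responds to thyroid hormone and carbohydrate and promotes fatty acid synthesis. Control livers had 148, 78.4 and 79.2 CPM, vehicle-treated livers 32.3, 26.0, 65.5, 7.01 and 5.71 CPM, and hAAM-treated livers 39.0, 14.4, 87.1 and 70.7 CPM. The vehicle group spanned 11.5 times from lowest to highest and lay below the controls, whereas hAAM replicate 3 was above 2 of the controls. The log2 fold change of -1.90 with vehicle (95% interval -3.44 to -0.37) had an edgeR FDR of 0.0602, and that of -0.95 with hAAMs an FDR of 0.394. Without vehicle replicate 3 the vehicle value was -2.52 at an FDR of 0.0158.

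Elovl6 (ENSMUSG00000041220, chr3:129532355-129638495, plus strand) elongates palmitate to stearate. It was measured at 144, 92.9 and 97.7 CPM in control, 22.4, 22.3, 41.7, 17.0 and 23.8 CPM in vehicle-treated and 38.3, 25.3, 23.7 and 41.2 CPM in hAAM-treated livers. The highest injured liver, vehicle replicate 3, was still below the lowest control. Elovl6 fell by 2.13 on the log2 scale with vehicle (95% interval -2.73 to -1.54, edgeR FDR 0.000351) and by 1.80 with hAAMs (-2.43 to -1.16, FDR 0.00239), and both calls held in each of the 12 fits that left out 1 liver.

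Elovl3 (ENSMUSG00000038754, chr19:46131897-46135694, plus strand) elongates saturated and monounsaturated fatty acids and is known in liver for a strong daily rhythm and higher expression in males. Its level was 445, 134 and 186 CPM in control livers, 9.05, 11.6, 17.8, 3.34 and 6.85 CPM with vehicle and 68.2, 30.4, 45.1 and 19.5 CPM with hAAMs. The 3 groups did not overlap, with the hAAM-treated livers between the other 2, and control replicate 1 was far above the other controls. The livers on either side of the gap between the treatments were the near-identical vehicle replicate 3 and hAAM replicate 4. Elovl3 fell by 4.72 with vehicle (95% interval -5.92 to -3.51, edgeR FDR 0.000232) and by 2.64 with hAAMs (-3.86 to -1.43, FDR 0.00803), both on the log2 scale. Without control replicate 1 these values were -4.04 and -1.97, both still called. Pitx3, on the other strand, overlaps it and had 1 to 655 counts per liver against 226 to 23356 for Elovl3.

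Scd1 (ENSMUSG00000037071, chr19:44394455-44407879, minus strand), the most abundant of the 10, stood at 11253, 6497 and 7003 CPM in control livers. With vehicle the livers were at 310, 366, 2104, 221 and 229 CPM, and with hAAMs at 1154, 666, 1009 and 2236 CPM. All injured livers lay below all controls, and vehicle replicate 3 stood far above the other 4 livers of its group, without which the log2 value with vehicle was -4.87. Scd1 fell by 3.68 on the log2 scale with vehicle (95% interval -5.25 to -2.10, edgeR FDR 0.00342) and to 15.3% of the control mean with hAAMs (95% interval of the log2 value -4.36 to -1.05, FDR 0.0271). Leaving out control replicate 1 or 3 or hAAM replicate 1 or 2 moved the hAAM value past the threshold, to FDRs of 0.0562 to 0.0757, with log2 values from -2.81 to -2.41. Scd3, a neighbouring copy, shares 8.12% of its 31-base words with Scd1 and stood at 1.14% of its counts or slightly more in each liver, so its own level is uncertain.

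Pnpla3 (ENSMUSG00000041653, chr15:84167837-84187236, plus strand) codes for a lipid droplet protein that acts on triglycerides and is a known SREBP-1c target. It was the least abundant, with 10 to 376 counts per liver. The level was 3.24, 5.91 and 2.00 CPM in control, 0.344, 0.279, 3.23, 0.148 and 0.222 CPM in vehicle-treated and 0.832, 0.278, 0.523 and 3.29 CPM in hAAM-treated livers. Vehicle replicate 3 and hAAM replicate 4 lay among the controls, and the other 7 injured livers below them. With those 2 livers the log2 fold changes of -2.18 and -1.60 did not pass the test (edgeR FDR 0.103 and 0.278), and without them they were -3.90 and -2.77 at FDRs of 0.000489 and 0.00496.

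**Figure D2:**
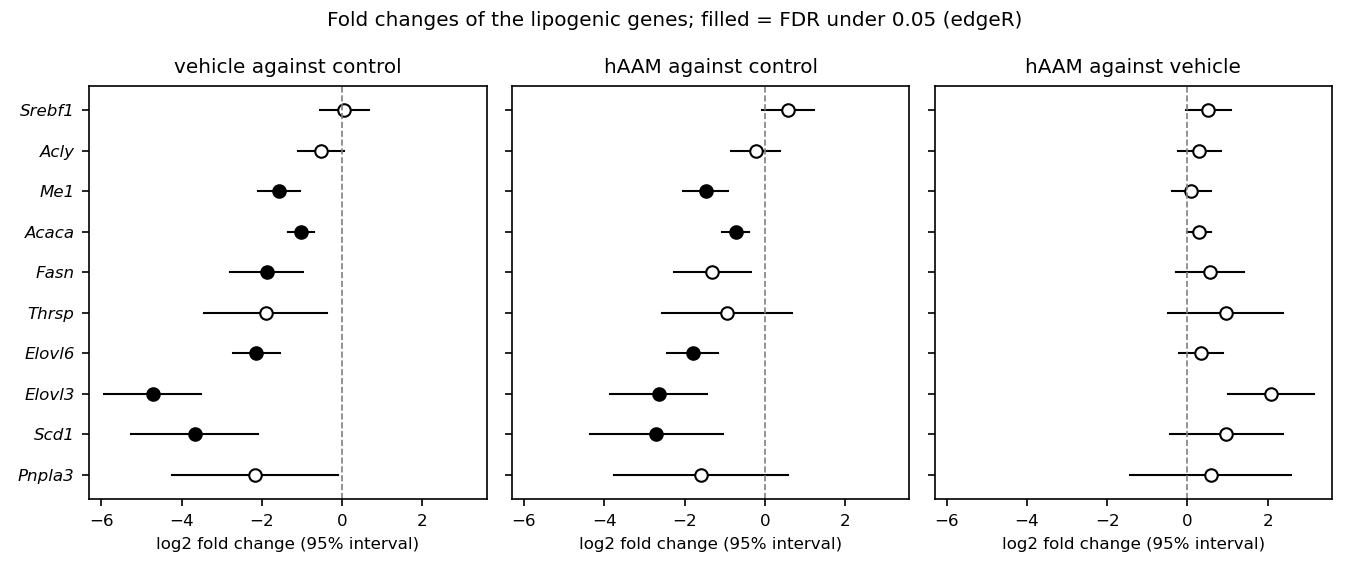
Log2 fold change of each lipogenic gene (points) with its 95% interval (lines) in the 3 comparisons, from one edgeR fit of the 12 livers, with filled points for an FDR under 0.05. The fold changes against control run from 0.06 for Srebf1 to -4.72 for Elovl3 with vehicle, and no point is filled between the treatments.

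The comparison of hAAM-treated with vehicle-treated livers asks what the cells changed in injured liver. Among the 10 genes none was called higher or lower, and over all genes tested edgeR called 0% higher and 0% lower at the FDR threshold, with 1133 genes at an unadjusted p under 0.05 and a smallest FDR of 0.792. DESeq2 called 1 gene, Trim24 (log2 -0.59, adjusted p = 0.0453), which is named here after its values were seen. All 10 fold changes were positive, with a median of 0.55, where 50.9% of all genes were positive with a median of 0.003. These 10 values come from the same 9 livers and are not independent of each other. The genes were chosen with results of these livers known, so their shared sign is not independent evidence of a direction.

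Elovl3 was the one gene of the 10 whose groups did not overlap, with 19.5 to 68.2 CPM in hAAM-treated and 3.34 to 17.8 CPM in vehicle-treated livers. In this direction, 0.709% of all genes tested showed that pattern. The 19.5 and 17.8 CPM belong to hAAM replicate 4 and vehicle replicate 3, the near-identical pair, so the gap lies within that pair. The fitted level of Elovl3 was 4.21 times higher with hAAMs (log2 2.07, 95% interval 1.00 to 3.15), with an unadjusted p of 0.00117 and an edgeR FDR of 0.966. It was also the 1 gene of the 10 that was higher at an unadjusted p under 0.05, which 2.63% of all genes were. For the other 9 genes the interval of the difference included 0. It ran from -0.44 to 2.39 for Scd1, from -0.48 to 2.39 for Thrsp, from -0.27 to 1.42 for Fasn and from -0.01 to 0.59 for Acaca.

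Without the near-identical pair, Scd1 joined Elovl3 in having every hAAM-treated liver above every vehicle-treated liver, as did 4.32% of all genes tested with these fewer livers. Scd1 then stood at 666 to 1154 CPM in the 3 remaining hAAM-treated and at 221 to 366 CPM in the 4 remaining vehicle-treated livers (log2 1.74, edgeR FDR 0.198). Elovl3 stood at 30.4 to 68.2 and 3.34 to 11.6 CPM (log2 2.63, FDR 0.353). Fasn reached 213 to 461 against 143 to 291 CPM (log2 0.79, FDR 0.664), and Me1 did not separate (log2 0.12, FDR 0.973).

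**Figure D3:**
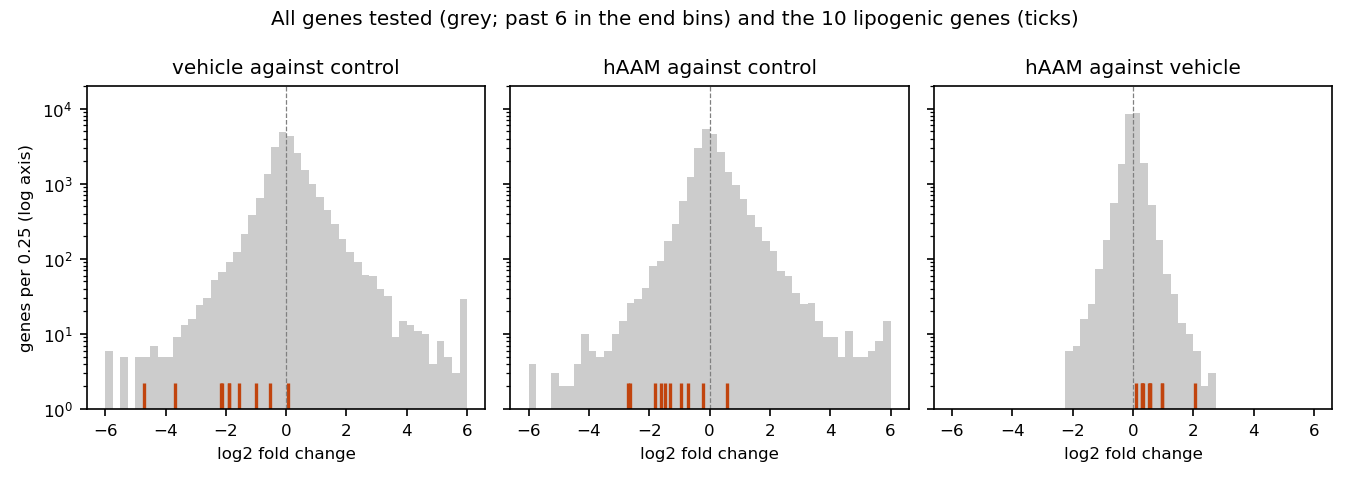
Distribution of log2 fold changes over all 22581 genes tested (grey, genes per 0.25 on a log axis, values past 6 in the end bins) with the 10 lipogenic genes as ticks, for the 3 comparisons. The ticks spread to -4.72 against control with vehicle and lie between 0.10 and 2.07 for hAAM against vehicle.

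Promoter windows are shown because the enzymes that fell together have been described as targets of shared factors. Of the 10 genes, 8 were matched in the RefSeq promoter table used (GRCm38.p6), with 11 windows in all. Scd1 and Elovl3, which fell the furthest, were not matched and not searched. The only Acaca window (chr11:84195318-84195437) lies inside the gene, past its annotated start at 84129672. The 250 bases before each start were searched on both strands. The letters of the sterol regulatory element TCACNCCAC were in 0 of the 11 windows and in 1.05% of 32851 RefSeq windows, and the E-box CACGTG was in 0 of the 11 and in 6.02% of all. The CCAAT box CCAAT, the letters bound by NF-Y, was in 6 of the 11 windows and 33.8% of all, and the GC box GGGCGG in 5 of the 11 and 32.7%. A match is a description of letters, and a missing match says only that these letters are not in this window. The 120 bases just before the start are printed 5′ to 3′ on the strand of the gene for Fasn and Pnpla3, for one of the 3 starts of Srebf1, and for Acly, which has no such box here, with CCAAT boxes of either strand in capitals. The windows are chr11:120824548-120824667 (minus), chr15:84167696-84167815 (plus), chr11:60210472-60210591 (minus) and chr11:100528001-100528120 (minus).
Fasn: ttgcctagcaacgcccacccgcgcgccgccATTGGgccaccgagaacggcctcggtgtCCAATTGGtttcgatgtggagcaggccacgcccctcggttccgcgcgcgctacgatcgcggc
Pnpla3: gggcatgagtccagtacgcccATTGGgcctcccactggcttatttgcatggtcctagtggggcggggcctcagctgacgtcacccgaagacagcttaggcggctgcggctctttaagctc
Srebf1: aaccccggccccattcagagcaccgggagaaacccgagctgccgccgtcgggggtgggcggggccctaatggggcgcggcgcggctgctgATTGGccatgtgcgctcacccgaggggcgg
Acly: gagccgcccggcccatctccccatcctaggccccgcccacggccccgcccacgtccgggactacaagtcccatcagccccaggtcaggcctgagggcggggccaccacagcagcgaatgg
The 3 boxes of Fasn start at -90, -62 and -59 from the start site, and the last 2 overlap.

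The genes that regulate SREBP processing and its partner factors were mostly uncalled or lower. Of 16 tested, 6 were lower and 2 higher with vehicle, and 4 were lower and none higher with hAAMs. For this list and those below, the shares over all genes tested were 14.8% lower and 15.0% higher with vehicle. With hAAMs they were 9.96% lower and 10.7% higher. Mlxipl, which encodes ChREBP, fell the most, from 351 to 468 CPM in control to 97.0 to 212 CPM with vehicle (log2 -1.72, edgeR FDR 0.00077) and 137 to 227 CPM with hAAMs (log2 -1.16, FDR 0.0116). Insig1, the SREBP target whose product holds the precursor in the endoplasmic reticulum, fell by 1.18 with vehicle (FDR 0.0345). Nr1h3, the LXR-alpha gene that drives Srebf1, fell by a small step of 0.28 with vehicle (FDR 0.0267), while Ppargc1b, a coactivator of SREBP-1, rose by 1.02 (FDR 0.0197) and Mbtps2, a protease that cuts the precursor, by 0.29 (FDR 0.0451). Insig2 (log2 -0.49), Scap (-0.36) and Srebf2 (-0.07) did not pass the test with vehicle. The last of these is the paralog that acts mainly on cholesterol synthesis.

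Other genes of fatty acid synthesis, elongation and desaturation followed the listed enzymes in part. Of 23 tested, 12 were lower and 2 higher with vehicle, and 7 were lower and 1 higher with hAAMs, although under scaling by library size alone 4 and 2 of these were lower. Without control replicate 3, the vehicle calls of Slc25a1, Mcat, Mid1ip1, Oxsm and Mlycd were lost. Without control replicate 1, the hAAM calls of Slc25a1, Hacd2 and Mlycd were lost. Acacb, the mitochondrial acetyl-CoA carboxylase that restrains fatty acid oxidation, fell by 2.81 with vehicle (edgeR FDR 0.0017) and by 2.55 with hAAMs (FDR 0.00653). Fabp5, a fatty acid binding protein, fell by 2.36 with vehicle (FDR 9.15e-05), Fads1, the delta-5 desaturase, by 1.12 (FDR 0.0132), and Mid1ip1, the paralog of Thrsp, by 0.90 (FDR 0.0225). Scd2, the desaturase paralog of other tissues, did not pass the test (log2 0.20) and stood at 19.7 to 28.4 CPM in control and 20.9 to 33.3 CPM with vehicle, while Fads2 (-0.75) and Elovl5 (-1.13) also missed the threshold. Elovl7 rose by 3.14 with vehicle (FDR 0.00384), from a low level of 0.381 to 0.472 CPM in control livers, and Fads3 by 0.47 (FDR 0.00783).

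**Figure D4:**
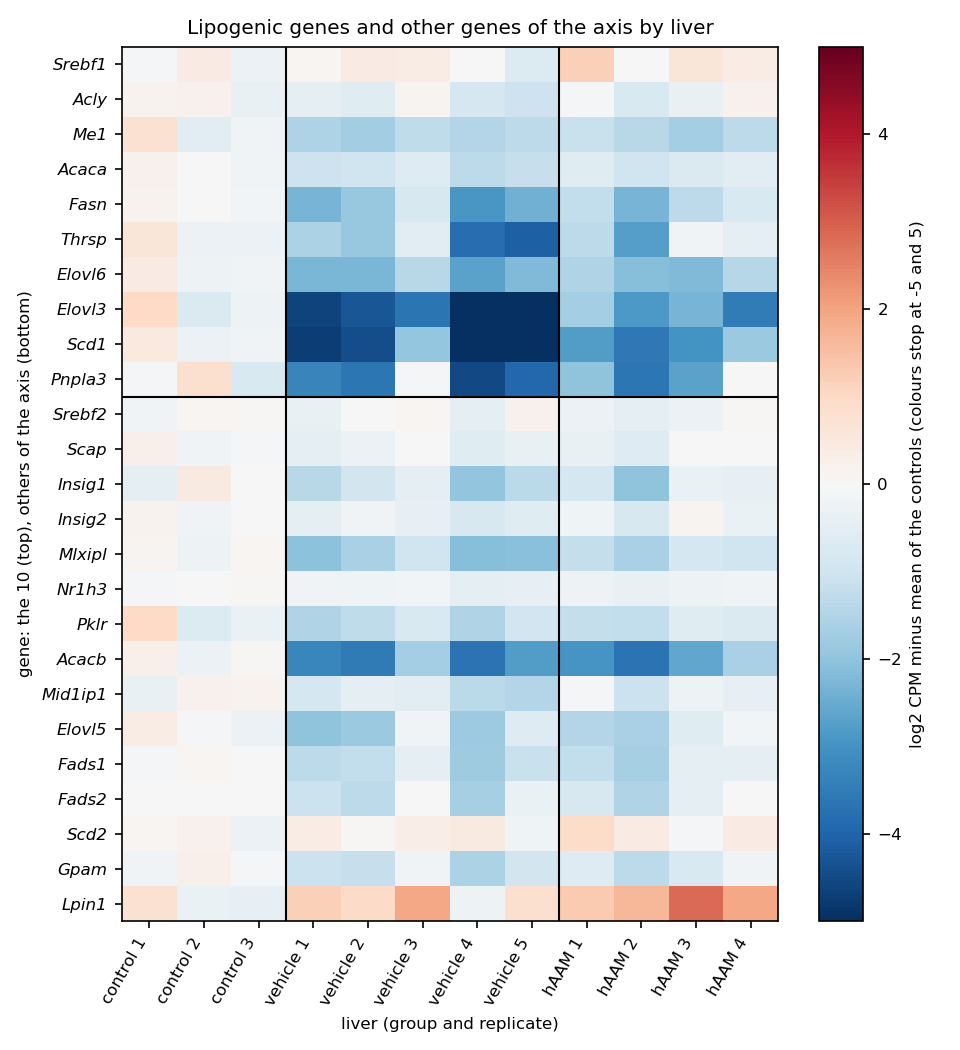
Log2 CPM of the 10 lipogenic genes (top) and of 15 other genes of the axis (bottom) in each liver, minus the mean of the 3 control livers, with blue for lower, red for higher and colours that stop at 5 in either direction. Scd1 and Elovl3 are darkest in the vehicle-treated livers, the row of Srebf1 varies around the control mean, and the column of vehicle replicate 3 is paler than its neighbours for most genes.

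The supply routes around the pathway moved unevenly. Of 17 genes of insulin signalling and glycolytic entry, 8 were lower and none higher with vehicle, and 4 were lower and 1 higher with hAAMs. Irs2, the insulin receptor substrate that SREBP-1c represses, fell by 2.54 with vehicle (edgeR FDR 0.00892), and Pklr, liver pyruvate kinase, fell by 1.35 (FDR 0.00931). Both calls rested on control replicate 1, without which Irs2 was at -1.47 (FDR 0.0763) and Pklr at -0.67 (FDR 0.0608). Without that liver, the vehicle calls of Irs1 and Khk were also lost, as were the hAAM calls of Insr, Pklr, Pik3ca and Foxo1. Of 11 NADPH-supplying genes other than Me1, 3 were higher and 1 lower with vehicle, among them Me2, the mitochondrial malic enzyme, which rose by 0.97 (FDR 0.0142), and Pgd of the pentose phosphate pathway, which rose by 0.96 (FDR 0.00874), while cytosolic Idh1 fell by 0.60 (FDR 0.00675).

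Triglyceride synthesis showed calls in both directions, and its 2 higher calls with vehicle were near the 15.0% over all genes tested. Of 13 genes tested of 14 listed, 4 were lower and 2 higher with vehicle, and 2 were lower and 3 higher with hAAMs. Gpam, the mitochondrial glycerol-phosphate acyltransferase and an SREBP-1c target, fell by 0.92 (edgeR FDR 0.03) and Acsl3 by 0.71 (FDR 0.04) with vehicle, whereas Gpat3 rose by 1.84 (FDR 0.0016) and Lpin3 by 1.20 (FDR 0.00164). Lpin1, a phosphatidate phosphatase and coactivator, stood at 44.5 to 101 CPM in control and 149 to 422 CPM with hAAMs, where it rose by 1.94 (FDR 0.0191), and with vehicle its value of 0.97 did not pass the test (FDR 0.135). LXR targets outside lipogenesis (8 tested) had 2 higher and 2 lower with vehicle, where Abcg1 rose by 1.04 (FDR 0.00244) and Mylip by 0.59 (FDR 0.0265), while Abca1 fell by 0.71 (FDR 0.00149) and Pltp fell by 0.61 (FDR 0.0476). With hAAMs 2 were higher and none lower.

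Fatty acid oxidation, the opposite route, had 1 higher and 2 lower of 17 with vehicle, and none higher and 2 lower with hAAMs. These counts were near or below the shares over all genes tested. Cyp4a14 rose by 4.01 (edgeR FDR 0.0352) and Cpt2 fell by 0.49 (FDR 0.0294), both with vehicle. Of 19 cholesterol synthesis and uptake genes under SREBP-2, 4 were lower with vehicle and 3 with hAAMs and none higher, and with vehicle Mvd fell by 1.32 (FDR 0.00409). No gene of any of these lists was called between hAAM-treated and vehicle-treated livers. Under library size alone, the lower calls with vehicle went from 6 to 1 for SREBP processing, from 8 to 4 for insulin signalling and from 4 to 0 for triglyceride synthesis. Without the near-identical pair, lower calls with vehicle went from 12 to 15 for other fatty acid synthesis and from 4 to 7 for cholesterol genes, and lower calls with hAAMs from 3 to 6 for cholesterol genes, from 4 to 1 for insulin signalling and from 2 to 1 for triglyceride synthesis. Higher calls with hAAMs went from 2 to 1 for LXR targets and from 1 to 2 for other fatty acid synthesis, and NADPH supply gained 1 lower call. With vehicle, the calls of Mlxipl, Acacb, Fabp5, Fads1, Elovl7, Fads3, Pgd, Idh1, Gpat3, Lpin3, Abcg1, Abca1 and Mvd held in each fit that left out 1 liver. Those of Insig1, Nr1h3, Ppargc1b, Mbtps2, Mid1ip1, Irs2, Pklr, Me2, Gpam, Acsl3, Mylip, Pltp, Cyp4a14 and Cpt2 were lost in 1 or more of these fits, as was the call of Lpin1 with hAAMs. The lists, like the genes, were drawn up with earlier results of these livers known.

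**Figure D5:**
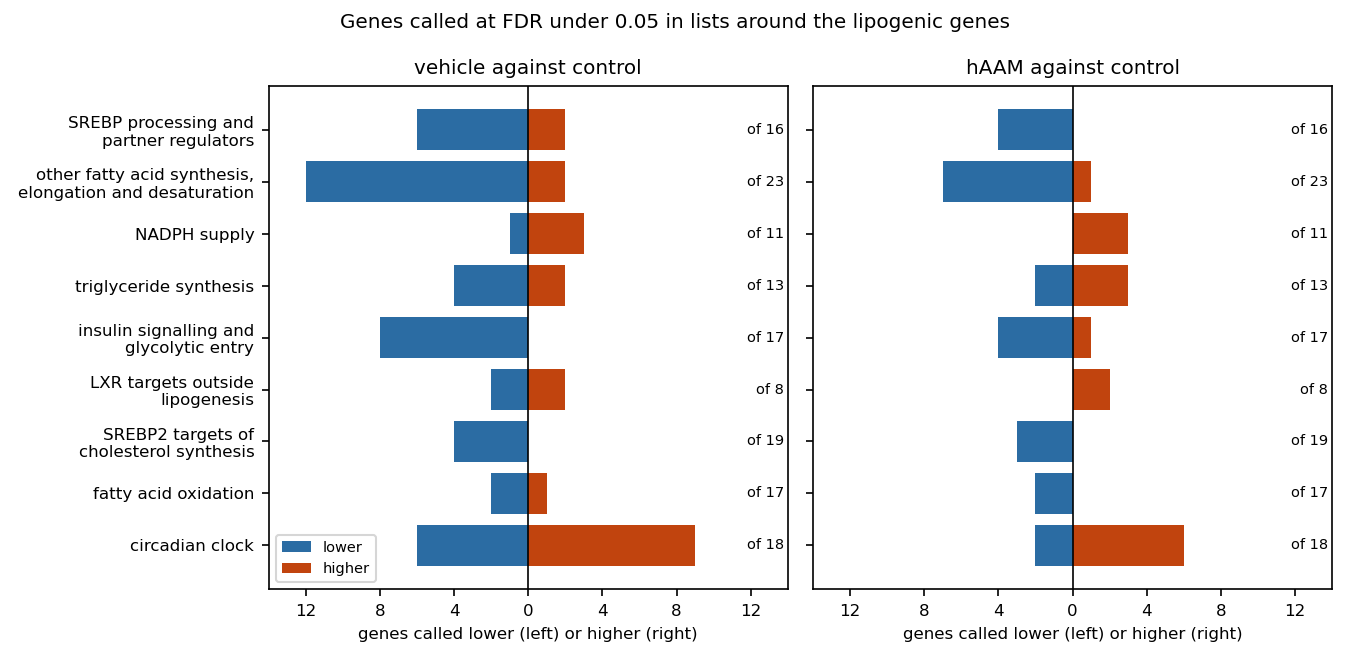
Number of genes called lower (left, blue) or higher (right, red) at an FDR under 0.05 in each list around the lipogenic genes, for vehicle and hAAM against control, with the number tested at the right edge. The longest bar to the left is that of other fatty acid synthesis genes with vehicle, 12 of 23, and the circadian clock list has 9 higher and 6 lower calls of 18.

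Markers of the cell types in the tissue moved as well, and in bulk tissue fewer cells of a type and less RNA per cell cannot be told apart. The summed level of 9 hepatocyte markers was 83672 to 112667 CPM in control, 79424 to 111703 CPM in vehicle-treated and 83695 to 116203 CPM in hAAM-treated livers, with 3 of 9 lower and none higher (Fgb fell by 1.05 and Cebpa fell by 0.47). All 8 pericentral hepatocyte markers were lower with vehicle and 6 of 8 with hAAMs. Their sum went from 4368 to 6909.8 CPM in control to 387 to 1665 CPM with vehicle and 526 to 3121 CPM with hAAMs, where Glul fell by 4.27 and Slc1a2 fell by 7.97 with vehicle. Of 8 periportal markers, 1 was higher (Sds, by 1.33) and 1 lower (Cyp2f2 fell by 1.58). The part of these shifts in the levels of the lipogenic genes was not tested.

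Lipogenic genes are also expressed in adipocytes. Of 5 adipocyte markers, Lep was not listed, and the other 4 summed to 0.236 to 1.39 CPM in control, 0.139 to 0.725 CPM in vehicle-treated and 0.0775 to 2.95 CPM in hAAM-treated livers. Adipoq had 0 to 5 counts per liver in control, 0 to 5 with vehicle and 0 to 22 with hAAMs. Plin1 had 0 to 29 and Retn 0 to 12 counts over all livers. Cfd, the one of them that passed the filter, had 15 to 53 counts in control, 4 to 29 with vehicle and 3 to 93 with hAAMs, and was not called. The lowest Pnpla3 level in an injured liver was 0.148 CPM and the highest 3.29 CPM, so the sums overlapped with Pnpla3, and they lay below the other 9 lipogenic genes. The part of adipocyte RNA in the level of Pnpla3 was not tested. Of the other lists with vehicle against control, 4 of 8 macrophage markers were higher (Ccr2 by 2.62 and Itgam by 2.40), 2 of 6 stellate cell and fibroblast markers (Col1a1 by 2.41 and Des by 1.25), 2 of 5 endothelial markers (Lyve1 by 1.29 and Pecam1 by 1.00) and 4 of 5 red cell genes (Hba-a1 by 2.56 and Hba-a2 by 2.55), while Alas2 fell by 1.67. Without vehicle replicate 5, Hba-a1 and Hba-a2 were at 1.56 and 1.55, both still called. The vehicle calls of Itgam, Des, Col1a1, Pecam1, Hba-a1, Hba-a2, Sds, Cyp2f2 and Cebpa were lost in 1 or more fits without 1 liver. None of 5 neutrophil, 5 lymphocyte and 5 cholangiocyte markers was called. Without the near-identical pair, 1 cholangiocyte marker was higher, and 7 of 8 pericentral markers were lower with vehicle and 5 of 8 with hAAMs. Of 5 endothelial markers, 2 were then higher and 1 lower with either treatment. In that fit 4 red cell genes were higher with hAAMs, where none was with all livers.

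Over the 12 livers, the genes whose centred log2 CPM lay closest to each lipogenic gene were searched among 11172 well-expressed genes, by root mean square (RMS) difference. Other than the likely shared-read copies Scd3, Gm5182 and Gm7329, the closest were Nudt7 to Scd1 (0.65), Mlxipl as the second closest to Fasn (0.33) after 1810008I18Rik (0.26), Pkdcc to Acaca (0.13), Slc26a1 to Acly (0.23), Tlcd2 to Elovl6 (0.33), Hsd3b5 to Elovl3 (0.69), Cpm to Srebf1 (0.28), Stat5a to Me1 (0.19) and Inmt to Thrsp (0.46). Scd3 was closest to Pnpla3 (0.75). Within the 10, Fasn and Elovl6 were each other's closest (0.38), as were Acaca and Acly (0.28) and Scd1 and Pnpla3 (0.79). Srebf1 was closest to Acly (0.44), not to the enzymes that fell the most. These distances are a description over livers that share groups, and are larger for genes with larger changes.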

How the data were processed

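Liver RNA was sequenced as 12 ribosomal RNA-depleted, strand-directional libraries (3 control, 5 vehicle and 4 hAAM by the labels), 2 of them nearly identical. Per the submitters' processing notes and the study's methods, the authors trimmed reads with cutadapt 4.6, aligned them with STAR 2.7.1a to GRCm38, and used summarizeOverlaps to obtain reads per gene. What the authors deposited is a table of unnormalized read counts for 24187 genes. Counting mode and strand use are not given in the sources used here, so overlapping genes and copies may have exchanged reads. Symbols and coordinates came from GENCODE M21, and promoters from RefSeq.

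The filterByExpr filter, applied by group, left 22581 genes. Counts were scaled with TMM and tested with edgeR 4.0.16 (R 4.3.3) in one quasi-likelihood fit with 3 two-sided contrasts and Benjamini-Hochberg FDR. CPM are TMM-scaled, and log2 CPM carry a prior count of 2. The tests were tried on simulated data. Libraries held 47391650 to 74056505 counts, and livers other than the near-identical pair differed by more than counting noise. Alternatives were DESeq2 1.42.0, other scalings and filters, only the 2 groups compared, a replicate block, robust estimation, FDR thresholds of 0.01 and 0.1, and leaving out livers.

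Members and lists were chosen with earlier results of these data known. Genes named were the 10 members, 16 fixed genes of the axis, the 2 largest called rises and falls per list with vehicle, and the 3 genes closest to each member, of which the closest are named. A few genes that this rule names are not reported here. The protocol names 14 libraries, and 12 samples were analysed.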

Additional observations from a re-analysis of the deposited data

Results flagged for a closer look

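In each group of 4 or 5 livers, the highest or lowest liver was compared with the others for 67 genes in 134 gene and group combinations, by Dixon's test at the 95% level, which chance alone passes in about 1 of 20 groups. It singled out 10 values. Vehicle replicate 3 was the high liver for 5 genes: Scd1 at 2104 CPM (the others 221 to 366), Elovl6 at 41.7 CPM (17.0 to 23.8), Pnpla3 at 3.23 CPM (0.148 to 0.344), Acacb at 81.2 CPM (20.1 to 37.4) and Npas2 at 6.58 CPM (1.58 to 2.79). This is the library that was nearly identical to hAAM replicate 4. Vehicle replicate 5 was the high liver for Lyve1 at 39.6 CPM (19.0 to 24.7), Hba-a1 at 841 CPM (77.5 to 218) and Hba-a2 at 415 CPM (38.4 to 109). Among hAAM-treated livers, replicate 3 was high for Slc1a2 at 42.9 CPM (0.352 to 2.37) and replicate 2 was low for Acsl3 at 21.1 CPM (32.4 to 34.4).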

How the results depend on the processing

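Of 657 fold changes of the 10 genes recomputed under alternatives, 629 kept their direction and their side of the threshold, 16 gained and 5 lost the call, and 7 reversed. The reversed values were not called before or after: Acly with hAAMs against control under library size alone (0.064), Srebf1 with vehicle against control without the near-identical pair (-0.0094) and in 4 of the 12 fits that left out 1 liver (-0.080 to 0.29 over all 12), and Pnpla3 for hAAM against vehicle without hAAM replicate 4 (-0.60, with values up to 2.31 over the 12 fits). DESeq2 gave no adjusted p for Scd1. The number of genes called with hAAMs against control, 4666, became 7340 under library size alone (with 1 lipogenic gene higher, Srebf1), 2729 with only the 2 groups compared, 1543 at FDR 0.01 and 2419 to 5456 without single livers. With vehicle, 6719 became 3183 at FDR 0.01. Between the treatments, 0 became 1 with DESeq2 and 0 to 1 without single livers, the 1 being Nudt7 without vehicle replicate 3 (log2 1.63, FDR 0.0269). The cause of these shifts was not tested. A replicate block gave 4253 and 2959 calls against control and took Scd1 with hAAMs to an FDR of 0.0531. Same-numbered livers correlated in their deviations at -0.46 to 0.38 over 10 pairs, 3 of them over 0.1, and 2 of 12 livers were closest to their own number, so the numbers do not pair the livers. Counting noise limits Pnpla3, which had as few as 10 counts in a liver.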

Other observations

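The circadian clock list, which bears on Elovl3 and other rhythmic lipogenic genes, had 9 higher and 6 lower calls among 18 genes with vehicle against control, and 6 higher and 2 lower with hAAMs (edgeR FDR under 0.05). Ciart, a repressor of the clock, stood at 0.667 to 0.909 CPM in control livers, 5.31 to 13.4 CPM with vehicle and 4.56 ± 2.41 CPM (SD, n = 4) with hAAMs, and rose by 3.43 with vehicle (FDR 0.000297). Dbp, an output factor of the clock, rose by 2.85 (FDR 0.00567), while Nfil3, which opposes it on the same sites, fell by 2.14 (FDR 0.000127) and Npas2 by 2.17 (FDR 0.0065). Without control replicate 1 the value of Npas2 was -1.55, and without the near-identical vehicle and hAAM libraries the list had 8 higher and 6 lower calls with vehicle and 5 higher and 1 lower with hAAMs. No gene of the list was called between the treatments. The hour at which each liver was taken is not given in the sources used here, and its part in these values was not tested.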
